A study of Mus musculus with 4 samples.

Results

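The miR-10, miR-99/100 and miR-125 families were represented by 7 microRNAs (miRNAs), with the probes mmu-miR-10a, mmu-miR-10b, mmu-miR-99a, mmu-miR-99b, mmu-miR-100, mmu-miR-125a-5p and mmu-miR-125b-5p (the species prefix is left out below). The rule that picks them uses probe names and no measured value, although the families were chosen for description with earlier results of these data known. They made up 7 of the 1096 mouse miRNA probes. All 7 were detected on all 4 arrays, as were 573 of the 1096. Detection means a raw intensity above the mean of the blank spots plus 2 SD. For 3 of the 7 (miR-10a, miR-10b and miR-125b-5p) the intensity also exceeded 3 times that threshold on every array, which held for 100 of the 1096 mouse probes, called bright here.

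RNA came from the small intestine of mice that carry the double-stranded RNA receptor TLR3 (Tlr3+/+) or lack it (Tlr3-/-). Each genotype was sampled without treatment at 0 hr, and again at 6 hr following whole-body gamma-irradiation with 10 Gy. Every one of these 4 groups was a pool of 3 mice on 1 array, so there were no replicates, no group has an SD, and precision is limited by having only 4 arrays. Neither strain nor age of the mice is stated in the labels.

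miRNAs are short RNAs that lower the translation and stability of messenger RNAs, which they recognise mainly through a seed at their 5′ end. The miR-10 genes lie inside Hox gene clusters, which set position along the body axis, and miR-10 is known to target Hox messenger RNAs. The miR-99/100 and miR-125 genes lie side by side with let-7 genes in an arrangement that dates back to early animals, and miR-125 is the vertebrate counterpart of the nematode developmental regulator lin-4. miR-99/100 is known to repress the growth kinase mTOR in human cells. miR-125b is known to repress p53, which mediates the response to radiation, in human and zebrafish cells.

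The mature sequences show how alike the 7 targets of these probes are, which bears on how far the probes can tell them apart. They are taken from RefSeq (GRCm38.p6), where all 7 matched by name (with a 5p suffix there), and are written 5′ to 3′ with bases 2 to 8, the seed, in capitals. The first group has the seed ACCCUGU, which 2 of 1679 mature mouse miRNAs in the RefSeq table carry, both of them miR-10s:
miR-10a: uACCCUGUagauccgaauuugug
miR-10b: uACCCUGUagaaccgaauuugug
The second group has the seed ACCCGUA, carried by 3 mature miRNAs in the table, all of them listed here:
miR-99a: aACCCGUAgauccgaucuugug
miR-99b: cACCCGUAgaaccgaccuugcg
miR-100: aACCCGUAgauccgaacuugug
The third group has the seed CCCUGAG, carried by 5 mature miRNAs in the table, of which miR-351 also has a probe on the array:
miR-125a-5p: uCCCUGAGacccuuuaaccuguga
miR-125b-5p: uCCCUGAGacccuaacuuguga

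Counting from 1 at the 5′ end, miR-10a and miR-10b differ at 1 position (U12A), and so do miR-99a and miR-100 (U16A). miR-99a and miR-99b differ at 4 positions (A1C, U11A, U16C and U21C). miR-10a and miR-100 are 3 edits apart, although their seeds differ, and miR-125a-5p and miR-125b-5p are also 3 edits apart. The probe sequences are not given in the files, so how much of one near-identical partner each probe also captures was not tested, and the values of miR-10a against miR-10b and of miR-99a against miR-100 are uncertain in that respect.

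The hairpin of miR-10a lies on chromosome 11 at 96317165-96317274, within Hoxb3 and 993 bp from Hoxb4 (GRCm38.p6, RefSeq annotation). That of miR-10b lies on chromosome 2 at 74726070-74726137, where the annotated spans of Hoxd3 and Hoxd4 both cover it. Mir100, Mirlet7a-2 and Mir125b-1 lie on chromosome 9 at 41531425-41582002, inside the long non-coding RNA gene Mir100hg. Mir99a, Mirlet7c-1 and Mir125b-2 lie on chromosome 16 at 77598936-77646343, with no overlapping gene in the table. Mir99b, Mirlet7e and Mir125a lie on chromosome 17 at 17830188-17830879, within Spaca6. The chromosome 17 hairpins fit in 692 bp, whereas those on chromosomes 9 and 16 spread over 50.6 kb and 47.4 kb, with Mir125b-1 and Mir125b-2 far from their neighbours. The mature miR-125b-5p of both Mir125b genes is identical, so its probe reads the sum of 2 loci.

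**Figure D1:**
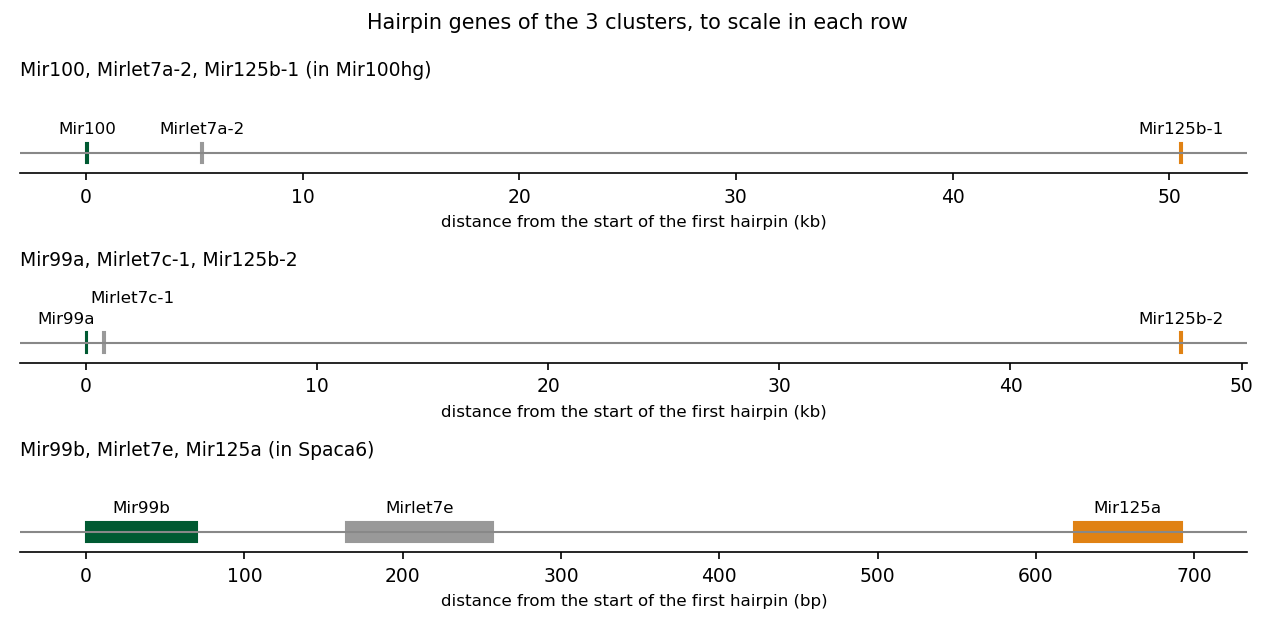
Position of the hairpin genes of the 3 miR-99/100 and miR-125 clusters, each drawn to its own scale, with the distance from the start of the first hairpin on the x axis (kb for the upper pair, bp for the lowest). Green marks miR-99/100 genes, grey let-7 genes and orange miR-125 genes; the Mir99b cluster spans 692 bp, the others 50.6 kb (Mir100) and 47.4 kb (Mir99a).

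Some facts of the 4 arrays touch all values below. The sample titles do not give the slide, which was inferred from the names under which the arrays were deposited. On that reading, the non-treated arrays share 1 slide name and the irradiated arrays carry 2 other slide names. Irradiation and the time of sampling cannot be told apart. If the names are read rightly, neither can be told from slide, nor can slide and genotype at 6 hr be told apart. The arrays carry no probe for Tlr3 messenger RNA, which leaves the genotype labels unchecked. All 8 listed miRNAs of intestinal epithelium were bright on all 4 arrays, which goes with a tissue that holds epithelium. Whether they tell the small intestine from other organs was not tested. The 8 spots of each of 2 spiked-in control RNAs had a pooled SD of 0.10 (log2) within arrays, a technical spread that leaves out mice, pools and slides. Blank spots averaged 24.5 to 27.3 in raw intensity, with thresholds of 25.8 to 29.2. Log2 ratios below come from background-corrected, quantile-normalized intensities, and an offset of 50 added in the correction pulls the ratios of dim probes towards 0. Where a value is said to hold its sign, this refers to 6 other ways of processing: median scaling, cyclic loess, scaling to the spikes, the authors' own normalized values, no background correction, and an offset of 16.

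miR-10a had the widest span of normalized values over the 4 arrays among the 7. Its raw intensity was 171 on the non-treated Tlr3+/+ array, 251 on the non-treated Tlr3-/- array, 170 on the irradiated Tlr3+/+ array and 191 on the irradiated Tlr3-/- array. The non-treated Tlr3-/- array stood above the other arrays, which lay close together. Relative to Tlr3+/+ at 0 hr, the log2 ratio of Tlr3-/- was 0.39 (1.31-fold), the 6th highest of 656 miRNAs compared and the 4th highest of the 107 bright ones. The irradiation ratio in Tlr3-/-, which uses the same high array, was -0.47 (1.39-fold lower), the 7th lowest of 625 miRNAs and the 4th lowest of 102 bright ones. In Tlr3+/+ the irradiation ratio was -0.15, and between genotypes at 6 hr the ratio was 0.07. The irradiation ratio in Tlr3-/- minus that in Tlr3+/+ was -0.33, the 25th lowest of 573 and the 16th lowest of 100 bright ones.

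These miR-10a ratios held their sign in 6 of 6 other ways of processing. At 0 hr they ran from 0.23 to 0.50, for irradiation in Tlr3-/- from -0.62 to -0.23, and for the difference between genotypes from -0.38 to -0.18. The values nearest to 0 came from scaling to the spikes, which were themselves brightest on the non-treated Tlr3-/- array. The median of spike control 1 was 3482, 4392, 3826 and 3921 across the arrays in the order given above, and that of spike control 2 was 3066, 3594, 3132 and 3261. With 1 pool per group, the spread between mice behind the high array was not measured, and no p-value can be given for any of these ratios.

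miR-10b, 1 base away from miR-10a, read 93.5, 106, 84.5 and 97.8 in raw intensity in the same array order. The 4 values lay closer together than those of miR-10a, with the non-treated Tlr3-/- array again the highest. The log2 ratio of Tlr3-/- over Tlr3+/+ was 0.07 at 0 hr and 0.17 at 6 hr. For irradiation it was -0.25 in Tlr3+/+ and -0.15 in Tlr3-/-, the last of which was 0.01 when arrays were scaled to the spikes. The 2 miR-10s were thus set apart mainly by the non-treated Tlr3-/- array: the ratio of miR-10a minus that of miR-10b was 0.32 at 0 hr (0.28 to 0.38 in other ways of processing) and -0.32 for irradiation in Tlr3-/- (-0.35 to -0.24). In Tlr3+/+ it was 0.10 for irradiation.

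**Figure D2:**
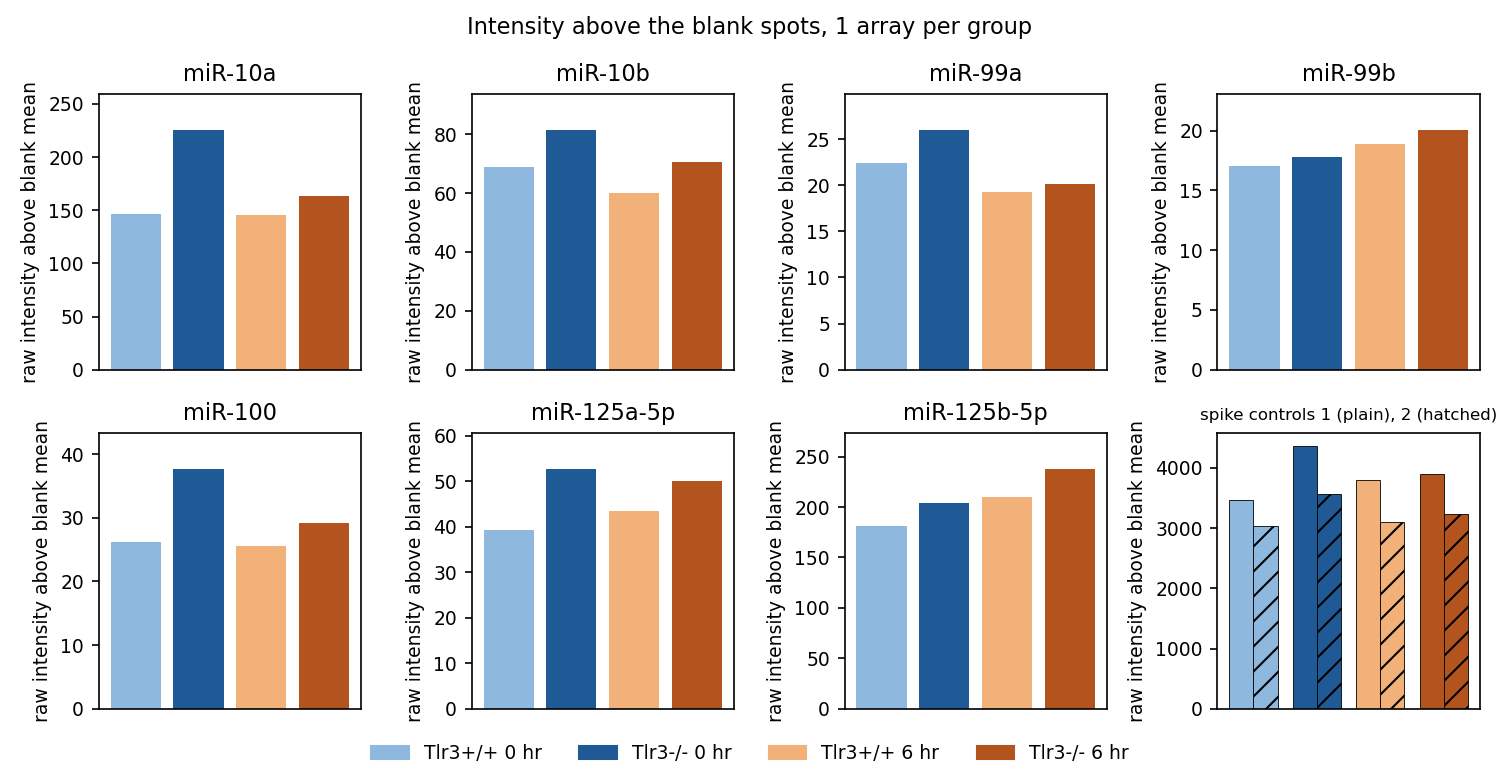
Raw intensity above the mean of the blank spots (y axis, linear from 0, own scale in each panel) on the 4 arrays for the 7 miRNAs, with the medians of both spike controls in the last panel. Bars are single arrays without error bars; miR-10a has its highest bar in Tlr3-/- at 0 hr (226 against 146 to 164 on the others), as both spike controls do, whereas miR-125b-5p has its highest bar in Tlr3-/- at 6 hr (238).

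The miR-99/100 probes were dim, between 41.6 and 62.6 in raw intensity, so their normalized ratios are compressed by the offset. miR-99a read 46.9 in non-treated Tlr3+/+, 50.9 in non-treated Tlr3-/-, 43.9 in irradiated Tlr3+/+ and 47.4 in irradiated Tlr3-/-. Within each genotype the irradiated array was the lower one, with log2 ratios of -0.12 in Tlr3+/+ and -0.11 in Tlr3-/-. The authors' values, which have no offset, gave -0.46 and -0.53 for these ratios, and scaling to the spikes gave 0.02 in Tlr3-/-. Between genotypes, miR-99a had 0.04 at 0 hr and 0.04 at 6 hr, and each turned sign in at least 1 other way of processing.

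miR-100, which shares all but 1 base with miR-99a, read 50.7, 62.6, 50.3 and 56.4. Like miR-10a, it was highest on the non-treated Tlr3-/- array. Its log2 ratio of Tlr3-/- over Tlr3+/+ was 0.18 at 0 hr, the 26th highest of 656, and 0.04 at 6 hr. For irradiation the ratio was -0.19 in Tlr3-/-, which held its sign in 6 of 6 other ways of processing, and -0.04 in Tlr3+/+. Scaling to the spikes moved the 0 hr ratio to -0.05 and the irradiation ratio in Tlr3-/- to -0.01.

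miR-99b, the member of the family in the compact chromosome 17 cluster, read 41.6, 42.6, 43.6 and 47.4. The arrays differed little, and the irradiated Tlr3-/- array was the highest in raw intensity. Its log2 ratios were -0.04 and 0.03 for irradiation in Tlr3+/+ and Tlr3-/-, and -0.01 and 0.06 between genotypes at 0 and 6 hr. The offset compresses all 4, so they cannot be set directly against the 0.10 spread of the bright spike spots. In the same order, the authors' values, without an offset, gave -0.09, 0.02, -0.15 and -0.04. Scaling to the spikes gave -0.002, 0.19, -0.24 and -0.05.

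miR-125b-5p ran the other way from the miR-10s under irradiation. Its raw intensity was 205 in non-treated Tlr3+/+, 228 in non-treated Tlr3-/-, 235 in irradiated Tlr3+/+ and 266 in irradiated Tlr3-/-. In both genotypes the irradiated array was the higher one. The log2 ratio was 0.15 in Tlr3-/-, above 0 in 6 of 6 other ways of processing (0.07 to 0.32), and 0.09 in Tlr3+/+, which the authors' values put at -0.02. Between genotypes it was -0.02 at 0 hr and 0.05 at 6 hr.

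Differences between the irradiation ratios of miRNAs were also compared, since a factor common to all probes of an array cancels in them, although they still depend on the correction, the offset and any scaling that acts by intensity. The irradiation ratio of miR-125b-5p minus that of miR-10a was 0.24 in Tlr3+/+ (0.17 to 0.28 in other ways of processing) and 0.63 in Tlr3-/- (0.54 to 0.73). Against miR-10b the difference was 0.34 in Tlr3+/+ (0.18 to 0.45) and 0.31 in Tlr3-/- (0.26 to 0.44). Against its cluster partners it was 0.13 and 0.34 for miR-100, and 0.20 and 0.27 for miR-99a, in Tlr3+/+ and Tlr3-/- respectively, each above 0 in all other ways of processing. In both genotypes the irradiation ratio of miR-125b-5p was thus the higher one of each pair, a description of 4 arrays without a test.

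miR-125a-5p, which differs from miR-125b-5p by 3 edits and comes from another locus, had irradiation ratios on the other side of 0. Its raw intensity was 63.7, 77.6, 68.1 and 77.3, higher in Tlr3-/- than in Tlr3+/+ at both times. The log2 ratio of Tlr3-/- over Tlr3+/+ was 0.10 at 0 hr, which scaling to the spikes moved to -0.05, and 0.13 at 6 hr (0.02 to 0.21 in the other ways of processing). The irradiation ratios were -0.09 in Tlr3+/+ and -0.05 in Tlr3-/-. Each of these turned sign in at least 1 other way of processing. The irradiation ratio of miR-125b-5p minus that of miR-125a-5p was 0.20 in Tlr3-/- (0.16 to 0.30) and 0.17 in Tlr3+/+, where it reached -0.02 under another way of processing.

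In the quantile-normalized values, none of the 7 differed by as much as 1.5-fold between any arrays compared. At the 2-fold limit, 0 of 7 passed for irradiation in Tlr3+/+ (1.76% of 680 miRNAs did), for irradiation in Tlr3-/- (0.64% of 625), between genotypes at 0 hr (0.305% of 656), between genotypes at 6 hr (0% of 645) or when the irradiation ratio of Tlr3+/+ was taken from that of Tlr3-/- (0.524% of 573). Among the bright miRNAs, 9.62%, 2.94%, 0%, 0% and 1% passed in these comparisons. At 1.5-fold the count was also 0 of 7 in each, where 3.38%, 2.56%, 0.915%, 0.465% and 2.62% of all miRNAs passed. The offset limits what these counts of members show. In simulated sets, 2-fold changes in the members' signal range had a median fitted irradiation change of 0.492 (log2). That value, a median over dim and brighter probes of this range, lies below the 1.5-fold limit. A 2-fold change in a member could thus be missed at both limits, most readily in a dim one, where the offset compresses more. With the authors' values, which have no offset, 0 of 7 passed 2-fold in each comparison. The median irradiation ratio of the 7 was -0.09 in Tlr3+/+, against -0.01 over all 680 miRNAs and -0.20 over the 104 bright ones. In Tlr3-/- it was -0.11, against 0.00 over all 625 and -0.07 over the 102 bright ones. Between genotypes the medians were 0.07 at 0 hr and 0.06 at 6 hr, against 0 and 0.01 over all miRNAs compared and 0 and 0.07 over the bright ones.

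By sign, the irradiation ratio was below 0 for 6 of 7 in Tlr3+/+, the exception being miR-125b-5p, where 57.2% of all miRNAs and 74% of the bright ones were below 0. In Tlr3-/- it was below 0 for 5 of 7, the exceptions being miR-125b-5p and miR-99b, where 50.7% of all and 54.9% of the bright miRNAs were. Other scalings changed these counts. In Tlr3+/+, 4 of 7 were below 0 with median scaling, 4 with cyclic loess, 5 with the spikes and 7 with the authors' values. In Tlr3-/-, scaling to the spikes left 2 of 7 below 0 and the other settings 5. Between genotypes, 5 of 7 were above 0 at 0 hr (48% of all miRNAs, 35.5% of the bright) and 7 of 7 at 6 hr (55% of all, 57.7% of the bright). At 0 hr the count was 7 of 7 with median scaling and with cyclic loess, 5 with the authors' values and 1 with the spikes. At 6 hr it was 7 with median scaling, 6 with cyclic loess, 5 with the authors' values and 4 with the spikes. These comparisons share arrays pairwise, so their counts are not independent of each other.

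**Figure D3:**
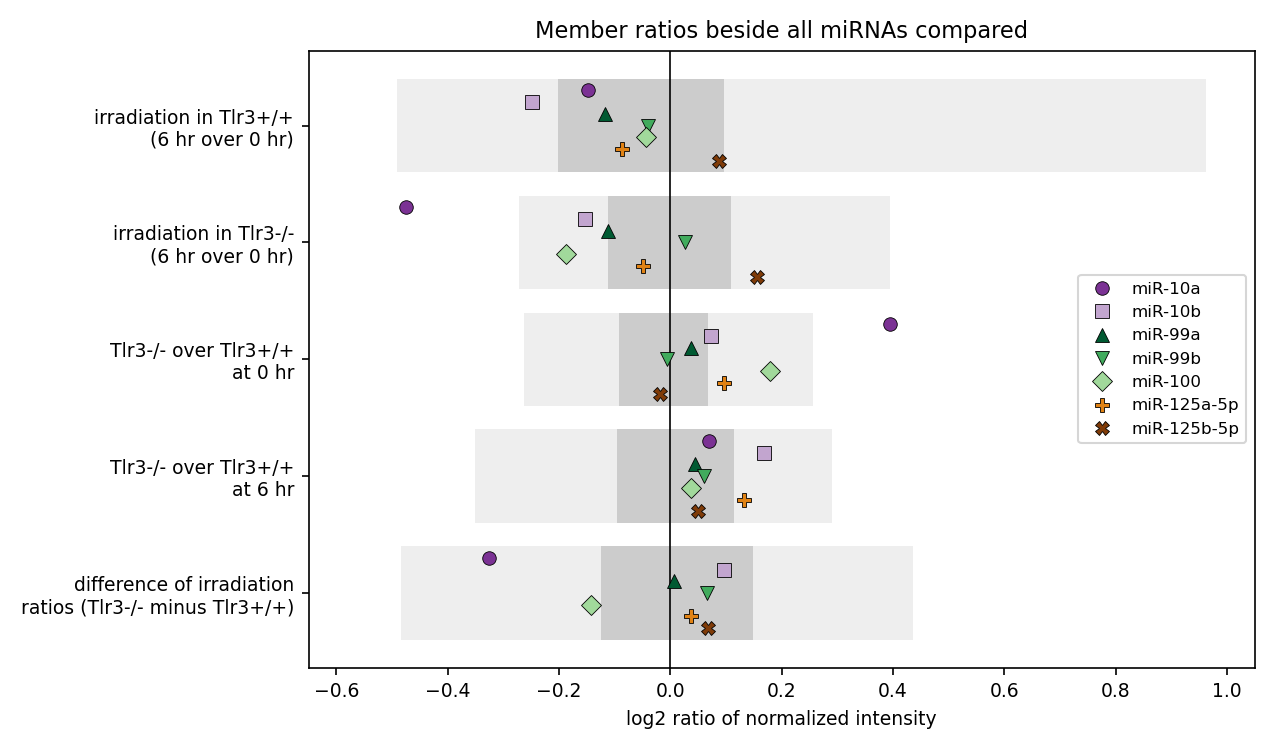
Log2 ratio of normalized intensity (x axis) of each of the 7 miRNAs in the 4 comparisons of arrays and for the irradiation ratio in Tlr3-/- minus that in Tlr3+/+. Dark bands span the 10th to 90th percentile of all miRNAs compared and light bands that of the bright ones; miR-10a lies outside both bands for irradiation in Tlr3-/- (-0.47) and between genotypes at 0 hr (0.39).

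A fit over both genotypes used limma on the 797 miRNAs detected on at least 2 arrays, with terms for genotype and irradiation and 1 residual degree of freedom. Its residual is the disagreement between the genotypes and not a spread between pools, so its p-values speak to these 4 arrays. In the simulated sets, the irradiation term of this fit recovered 18.5% of 2-fold and 26.5% of 4-fold changes in the members' signal range. The noise in those sets was only the spread of the spike spots, and each change was the same in both genotypes. Spread between mice, pools and slides was left out, so these shares are not the power of the fit on the real arrays. A member that does not pass is thus not shown to be unchanged. For irradiation, 0 of 7 and 0% of all 797 passed an adjusted p of 0.05 in limma with Benjamini-Hochberg adjustment, while 99 of the 797 had an unadjusted p under 0.05. The averaged change of miR-10a was -0.31 ± 0.11 (SE, limma adjusted p = 0.446), that of miR-10b -0.20 ± 0.036 (0.296), that of miR-99a -0.11 ± 0.017 (0.267) and that of miR-125b-5p 0.12 ± 0.028 (0.365). Of the 7, 3 had an unadjusted p under 0.05, namely miR-10b, miR-99a and miR-125b-5p, as did 12.4% of all miRNAs tested. Over the other settings the adjusted p of miR-10a ran from 0.25 to 0.965 and that of miR-125b-5p from 0.297 to 0.938. miR-100 averaged -0.12, miR-125a-5p -0.07 and miR-99b -0.01.

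For the genotype term, 0 of 7 and 0% of 797 passed, and 38 of the 797 had an unadjusted p under 0.05 in limma. The averaged difference, Tlr3-/- minus Tlr3+/+, was 0.23 ± 0.11 for miR-10a (limma adjusted p = 0.773). It was 0.12 for miR-10b, 0.11 for miR-125a-5p, 0.11 for miR-100, 0.04 for miR-99a, 0.03 for miR-99b and 0.02 for miR-125b-5p. Only miR-125a-5p among the 7 had an unadjusted p under 0.05 here, against 4.77% of all miRNAs tested.

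The let-7 neighbours in the same clusters gave ratios of their own. Raw intensities of let-7c, encoded beside Mir99a, were 697, 612, 687 and 860, lowest in non-treated Tlr3-/- and highest in irradiated Tlr3-/-. Its irradiation ratio was -0.295 in Tlr3+/+ and 0.32 in Tlr3-/-, where miR-99a had -0.12 and -0.11. let-7c also comes from Mirlet7c-2 on chromosome 15, so its probe does not read the chromosome 16 cluster alone. let-7e, between Mir99b and Mir125a, read 136, 136, 123.5 and 153, with irradiation ratios of -0.27 in Tlr3+/+ and 0 in Tlr3-/-, against -0.04 and 0.03 for miR-99b. let-7a, encoded beside Mir100 and also on chromosome 13, had irradiation ratios of -0.33 and -0.35, the latter moving to 0.03 at the other end of the settings. The mature let-7c, let-7a and let-7e differ by few bases, as the sequences show, and how far their probes tell them apart was not tested:
let-7a: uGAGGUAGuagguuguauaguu
let-7c: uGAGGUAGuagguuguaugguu
let-7e: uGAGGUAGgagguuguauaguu

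Of 8 probes for the other strands of the member hairpins, 3 were detected on all 4 arrays (miR-10a*, miR-99b* and miR-125a-3p) and 2 on none (miR-99a* and miR-100*). Apart from miR-125a-3p they read 24.1 to 32.4, near the blank spots. miR-125a-3p, released from the same hairpin as miR-125a-5p, is shown because its pattern was unlike that of its partner strand:
miR-125a-3p: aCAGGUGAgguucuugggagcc
It read 103 in non-treated Tlr3+/+, 85.8 in non-treated Tlr3-/-, 96.6 in irradiated Tlr3+/+ and 114 in irradiated Tlr3-/-. On the lowest array of miR-125a-3p, miR-125a-5p read 77.6. That was level with the 77.3 of miR-125a-5p on the irradiated Tlr3-/- array, where miR-125a-3p was highest. The irradiation ratio of miR-125a-3p was -0.15 in Tlr3+/+ and 0.29 in Tlr3-/-, and the ratio of Tlr3-/- over Tlr3+/+ was -0.26 at 0 hr and 0.18 at 6 hr, with the same signs in all 6 other ways of processing. miR-125a-5p had -0.09, -0.05, 0.10 and 0.13 for these.

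**Figure D4:**
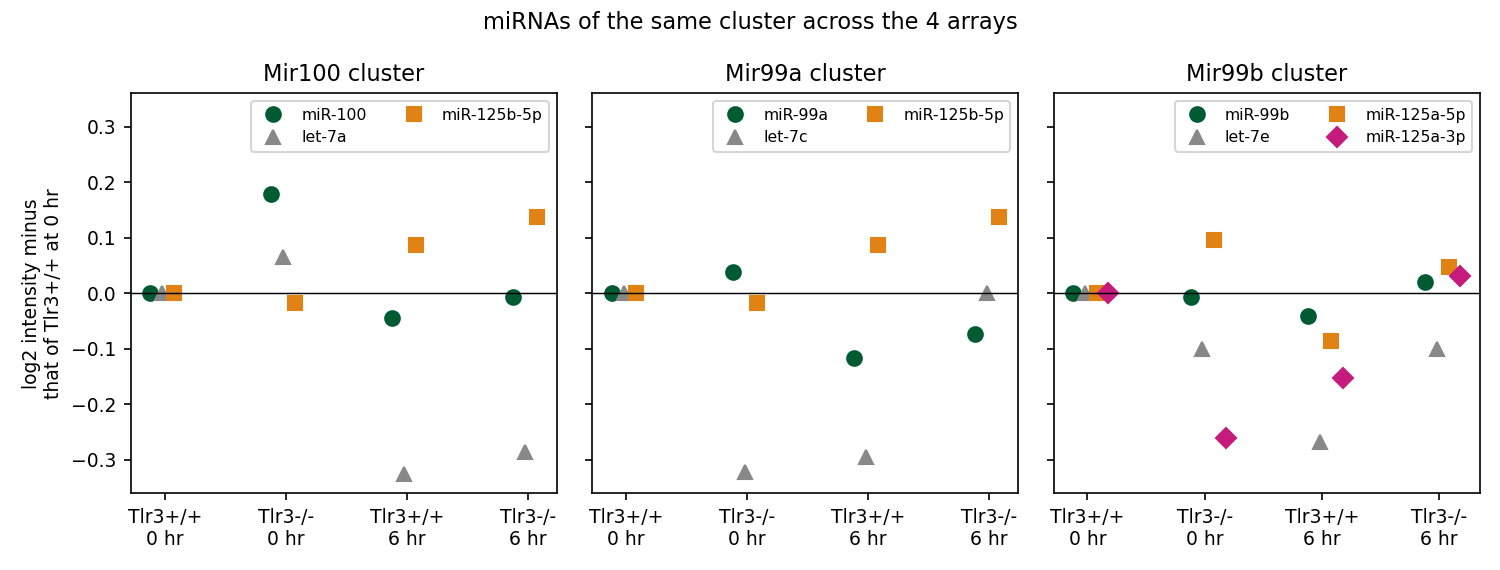
Normalized log2 intensity minus that of the non-treated Tlr3+/+ array (y axis) on the 4 arrays (x axis) for the miRNAs of each cluster, 1 point per array and no error bars; miR-125b-5p appears in the first and second panels since both loci encode it. On the irradiated Tlr3+/+ array let-7a lies at -0.33 and miR-125b-5p at 0.09, while miR-125a-3p and miR-125a-5p lie on opposite sides of 0 in Tlr3-/- at 0 hr (-0.26 and 0.10).

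The other miRNAs of the Hox clusters gave little signal. miR-196a, miR-196b, miR-615-3p and miR-615-5p, which are encoded in the Hoxa, Hoxb and Hoxc clusters, read 24.9 to 34.7 over the 4 arrays, and 3 of 4 were detected on all of them. miR-351, which shares the miR-125 seed, read 30.6 to 34.1. These intensities lie near the blank spots, where the offset compresses ratios most, and 0 of the 5 reached 1.5-fold in a comparison in which they were detected. The authors' values, without an offset, put miR-196a at 1.44 (log2) for Tlr3-/- over Tlr3+/+ at 0 hr, from raw intensities of 32.6 and 27.0.

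Among the 97 other bright miRNAs, the mean profile of the 7 over the 4 arrays (each centred on its own mean) was nearest to those of miR-199a-5p (root mean square distance 0.032), miR-29c (0.038) and let-7i (0.041). That mean profile was 0.00, 0.10, -0.09 and -0.01 in the order non-treated Tlr3+/+, non-treated Tlr3-/-, irradiated Tlr3+/+ and irradiated Tlr3-/-. It was so shallow that 38 of the 97 lay within the spread of the spike spots from it. Of the members, miR-125a-5p lay nearest to it (0.025) and miR-10a farthest (0.147), with miR-125b-5p at 0.119.

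Levels of cell type marker miRNAs are given beside these results, since in bulk tissue fewer cells of a type and less RNA per cell cannot be told apart. The summed intensity above blank of 4 leukocyte miRNAs (miR-142-3p, miR-142-5p, miR-150 and miR-223) was 221, 290, 173 and 197 across the arrays, highest on the non-treated Tlr3-/- array as miR-10a was, with a median log2 ratio of 0.19 between genotypes at 0 hr. That of the smooth muscle miRNAs miR-143 and miR-145 was 2574, 3144, 2560 and 2800, also highest there. These sums are unscaled. On the normalized log2 scale, the median irradiation ratio in Tlr3+/+ and Tlr3-/- was -0.55 and -0.53 for smooth muscle and -0.23 and -0.16 for leukocyte miRNAs. The smooth muscle medians rest on 2 probes, at -0.78 and -0.32 in Tlr3+/+ and at -0.78 and -0.27 in Tlr3-/-. These medians lay below 0 as the miR-10 ratios did, but so did 74% of the bright miRNAs in Tlr3+/+ and 54.9% in Tlr3-/-. The median was -0.12 and -0.09 for fibroblast and -0.17 and -0.04 for endothelial miRNAs. In Tlr3-/- the 2 endothelial probes had opposite signs, -0.18 and 0.10. These list medians were computed with quantile normalization only. The 3 fibroblast probes on the array summed to 156, 156, 146 and 142, and the 2 endothelial ones to 333, 329, 330 and 335. The red cell probes (1 of 2 detected on all arrays) summed to 19.9, 148, 105 and 57.5. The 3 striated muscle probes summed to 29.6, 25.01, 31.7 and 34.2, and the 2 neuronal probes, near the blank level, to 5.96, 5.496, 2.37 and 3.69. The 8 epithelial miRNAs had median log2 ratios of -0.33 and 0 for irradiation in Tlr3+/+ and Tlr3-/-, and of -0.09 and 0.11 between genotypes at 0 and 6 hr. The part of these cell types in the ratios of the miR-10, miR-99/100 and miR-125 probes was not tested.

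**Figure D5:**
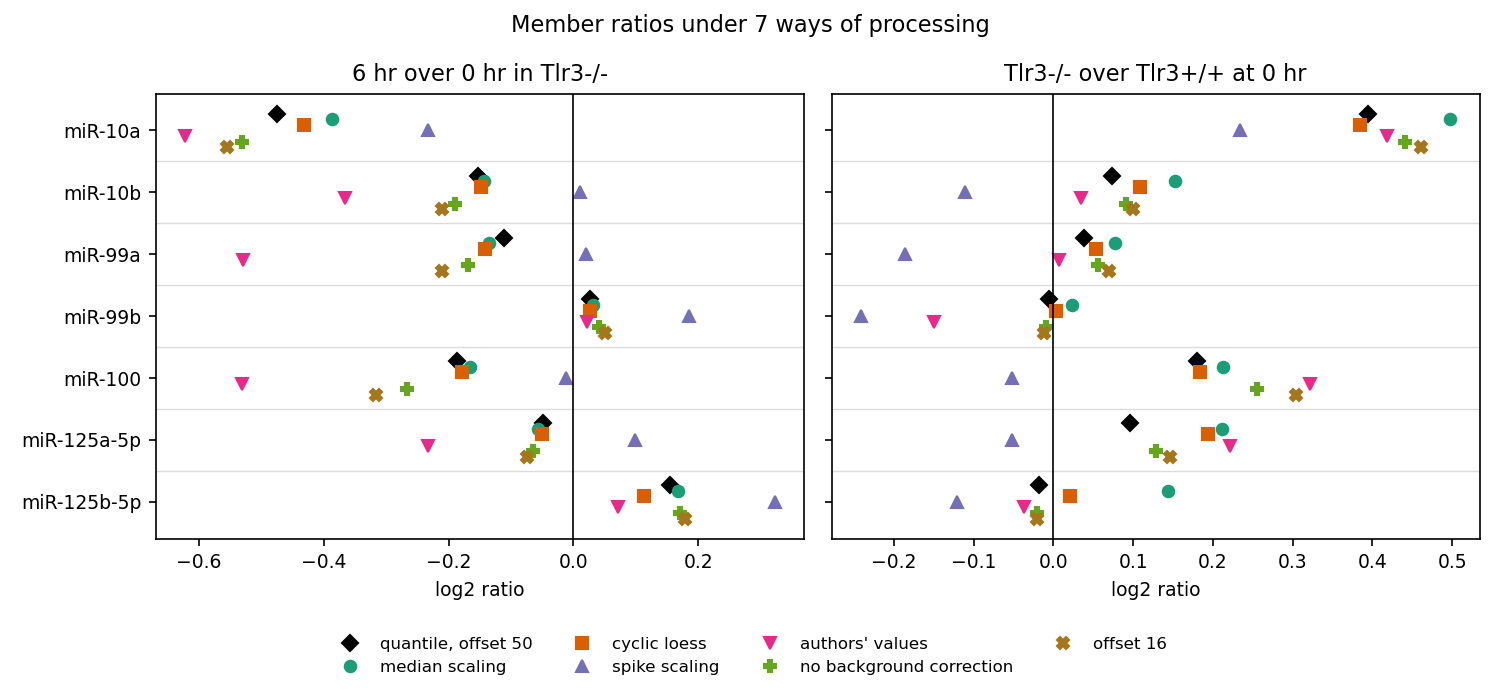
Log2 ratio (x axis) of the 7 miRNAs under the 7 ways of processing, for irradiation in Tlr3-/- (left) and for Tlr3-/- over Tlr3+/+ at 0 hr (right), each marker a single ratio of 2 arrays. miR-10a lies on 1 side of 0 under all 7 in both panels, and miR-125b-5p lies above 0 under all 7 on the left; triangles pointing up, scaling to the spikes, shift all 7 to the right in the left panel and to the left in the right panel.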

How the data were processed

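Total RNA was labelled with Hy5 and hybridised to 1-colour miRCURY LNA miRNA arrays, per the labels' protocols. Each array's deposited file lists raw intensities for 3136 spots, of which 1135 are miRNA probes and 1818 blanks. Their normalized intensity, per the file headers a global normalization, equals the raw value minus the trimmed blank mean (5% left out at each end) times 1 factor per array, with cells empty below the detection threshold. Scanner and software are not given in the sources used. From the raw intensities, normexp correction with the blanks as negative controls (nec of limma 3.58.1, R 4.3.3, offset 50), quantile normalization over miRNA probes and log2 were applied here. Ratios have no test, since each group has 1 array. The limma fit (lmFit, eBayes, Benjamini-Hochberg) used 797 miRNAs. Scripts were tested on simulated data. Alternatives were 3 other scalings, the authors' values, other background corrections, other filters and a 1.5-fold limit.

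Members and lists were chosen with earlier results of these data known. The text names all 7 members, the other strands, let-7 neighbours, Hox miRNAs and seed-sharing miRNAs, marker lists taken from general knowledge, and the 3 bright miRNAs nearest to the members' mean profile. Each miRNA has 1 spot per array. Signal over background limits the dim miR-99/100 probes most.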

Additional observations from a re-analysis of the deposited data

Results flagged for a closer look

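For 2 bright relatives of the families the irradiation ratio pointed in opposite directions in the 2 genotypes, in every way of processing tried. For let-7c it was -0.295 in Tlr3+/+ and 0.32 in Tlr3-/-, a difference of 0.617 on the log2 scale, and for miR-125a-3p it was -0.15 and 0.29, a difference of 0.446. The same arrays give the same differences when read as Tlr3-/- over Tlr3+/+, which was -0.32 at 0 hr and 0.295 at 6 hr for let-7c, and -0.26 and 0.18 for miR-125a-3p. Of the 573 miRNAs compared, let-7c had the 5th highest difference and miR-125a-3p the 11th highest. Among the 100 bright ones they ranked 4th and 10th. Both were flagged from these same values, and the share of all miRNAs with opposite directions was not counted. The dim miR-99b* also had opposite signs in every way of processing, with -0.01 in Tlr3+/+ and 0.06 in Tlr3-/-. The authors' values, without an offset, put its ratios at -0.19 and 0.82. With 1 array per group these differences were not tested. No sample could be checked for standing apart within its group.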

How the results depend on the processing

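For the median ratio of the 7 miRNAs, the counts past the size limits and the limma counts, 119 recomputed values moved by less than the spread of the spike spots, or stayed within 1.5 times the reported count, and 27 did not. Among the 119 are all counts of members past the size limits, which were 0 throughout. The members' medians without a detection filter are also among them, and could not move since all 7 were detected on every array. The split of 119 and 27 is thus no measure of stability. The authors' values moved the members' median to -0.25 (irradiation in Tlr3+/+), -0.37 (irradiation in Tlr3-/-) and -0.0726 (difference of irradiation ratios). Scaling to the spikes moved it to 0.0194 (irradiation in Tlr3-/-) and -0.11 (Tlr3-/- over Tlr3+/+ at 0 hr), a scale on which the median of all miRNAs itself stood at 0.15 and -0.25. Counts of all miRNAs at 2-fold, reported as 12, 4, 2, 0 and 3 for irradiation in Tlr3+/+, irradiation in Tlr3-/-, genotype at 0 hr, genotype at 6 hr and the difference, became 73, 38, 25, 43 and 65 with the authors' values and 23, 16, 6, 3 and 15 at 1.5-fold. For irradiation in Tlr3-/- the count was 7 with spike scaling, 7 without background correction and 8 with an offset of 16. For the difference it was 1 with spike scaling, 5 without background correction, 9 with an offset of 16 and 1 at 3 times the threshold, where the count at 0 hr was 0. Limma called 1 miRNA for irradiation with median scaling, 1 with cyclic loess and 35 with spike scaling, and 3 for genotype with spike scaling, none of them a member. No member passed 2-fold in any setting. The cause of these shifts was not tested. A block for slide, as inferred from the array names, could not be fitted, since it leaves 0 residual degrees of freedom. No paired analysis was possible because each group has 1 array.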
